A study of Mus musculus with 15 samples.

Results

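RNA was compared between mouse brain tumours with floxed and with intact Atrx, all of which had received the oncogenic histone H3.3G34R. The 7 libraries of this comparison, of 15 in the series, were taken by genotype and histone: 4 from Np53fl;ATRXfl/fl mice given H3.3G34R-GFP, called floxed below, and 3 from Np53fl mice given H3.3G34R-GFP, called intact. All 7 tumours were started in C57BL/6 mice that carry Nestin Tv-a, a transgene that gives nestin-expressing neural progenitors the receptor for an avian virus. DF-1 cells, a chicken fibroblast line, brought the viruses: RCAS-Cre, which acts on the floxed Trp53 in both groups and on the floxed Atrx in one, RCAS-PDGFA, a growth factor that drives glioma in such models, and the GFP-tagged histone. Tumours were taken from the frontal cortex at the functional end point. The age and sex of the mice are not given in the labels, nor is the exon of Atrx between the loxP sites, and nothing says that each library is a different mouse, so p-values measure the spread between these libraries. A second contrast compares the same genotypes with wild-type H3.3 (RCAS-H3.3WT-GFP, here H3.3WT). It has 4 libraries from Np53fl;ATRXfl/fl and 4 from Np53fl mice. It is used below only to ask whether a difference was also present there. Because the genotypes are the same in both contrasts, any other difference between these mice cannot be told apart from that of Atrx.

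ATRX is a chromatin remodeller that works with the chaperone DAXX to place the histone variant H3.3 at heterochromatin, telomeres and repeats, and its gene is on the X chromosome. It is often lost in human hemispheric gliomas that carry H3.3G34R, an exchange in the histone tail that impairs methylation of a neighbouring lysine on the same tail. Polycomb repressive complex 2 (PRC2) methylates a lysine of histone H3 and keeps developmental regulators such as the Hox genes silent in the forebrain. Notch signalling passes between neighbouring cells through ligands and receptors and holds neural progenitors back from becoming neurons. The title of the series names PRC2 targets, Notch and the neuronal lineage, so the genes of these 3 themes are described first.

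The floxed libraries held 22807315 to 27495222 reads in genes and the intact libraries 26329990 to 30574393. Of 54232 genes, 17459 had a mean normalized count of at least 10 and were tested with limma on log2(normalized count + 1), where a normalized count is the read count divided by the size factor of its library. All 7 tumours had high RNA of Pdgfra, the PDGF receptor that marks oligodendrocyte progenitors (53669.7 to 112941 floxed, 54969.6 to 114453 intact), and of Olig2. Markers of other cells varied between libraries. Floxed replicate 3 stood apart with Mobp, a myelin protein gene, at 13480.3 and Snap25, a synaptic gene, at 3331, where the other 6 libraries had at most 3900.4 and 1502. Intact replicate 1 had the most RNA of hypoxia and matrix genes. Xist, the RNA of the inactive X, was at 6.82, 6.11, 14563 and 27.6 in the floxed libraries and at 21706, 6.98 and 42293 in the intact ones, so libraries with and without it were in both groups. Because the samples are bulk tumours, fewer cells of a type and less RNA per cell cannot be told apart.

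Atrx itself was lower in every floxed library. Its normalized counts were 1930.2, 2858, 3019 and 1341 in floxed replicates 1 to 4 and 5193, 5756 and 7981 in intact replicates 1 to 3. All 4 floxed values lay under the lowest intact value, at a mean of 36.2% of the intact mean, so RNA from the gene remained. The log2 difference was -1.51 (SE 0.32), and a 2-sided exact permutation test gave p = 0.0286, the smallest that the 35 assignments can give. Across all genes limma did not call it (adjusted p = 0.664), while the authors' deposited table of this comparison, made with DESeq2, gives -1.46 with an adjusted p of 0.0211. These are counts over the whole gene, so reads outside the deleted part and from cells that Cre did not reach may be in them. None of the 5 tested genes on either side of Atrx had groups that did not overlap. The other engineered genes differed by less than their errors: the log2 difference was -0.01 (SE 0.27) for Trp53, -0.13 (SE 0.32) and -0.09 (SE 0.33) for H3f3a and H3f3b, which encode H3.3, and 0.29 (SE 0.37) for Pdgfa.

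Across the genome the comparison gave few calls at these numbers of libraries. By limma, 4 genes passed a Benjamini-Hochberg adjusted p of 0.05, which is 0.0229% of the 17459 tested: Dll3, Selenov and Adcy8 rose in the floxed tumours and Gm11942 fell. A further measure, used below as a description, is whether the lowest library of one group lies above the highest of the other. That held for 409 genes higher in the floxed group (2.34% of those tested) and for 401 lower (2.30%). An unadjusted p under 0.05 was reached by 591 genes (3.39%). The authors' deposited table has 78 genes higher (0.372% of the 20987 with an adjusted p) and 35 lower (0.167%) at its own adjusted p under 0.05, and in 101 of these 113 the groups did not overlap. A gene that passed only that table is described below by its values and is not said to have risen or fallen.

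Dll3, a Notch ligand that sits mainly inside the cell and blocks Notch signalling within it, was the most abundant of the 3 genes that rose. It had 12729, 23652, 17466 and 37200.1 normalized counts in the floxed tumours and 1995, 2027 and 1609 in the intact ones. The lowest floxed tumour lay several times above the highest intact one, and the intact tumours hardly differed among themselves. The log2 difference was 3.49 (SE 0.35, limma adjusted p = 0.0334), from a mean of 1877 ± 233 (SD, n = 3) to 22762 ± 10614 (SD, n = 4). Its neighbour Selenov, which encodes a selenoprotein of little known function, was nearly silent in the intact tumours at 34.02, 15.7 and 10.7 and stood at 534, 414, 1023 and 1066 in the floxed ones. Every floxed tumour was far above every intact one, by 5.21 on the log2 scale (SE 0.51, limma adjusted p = 0.0334). Adcy8, a calcium-stimulated adenylyl cyclase of neurons, had 489, 474, 539.8 and 385 in the floxed and 38.1, 67.1 and 40.1 in the intact tumours. Its values were close together within each group and did not overlap between them, with a log2 difference of 3.29 (SE 0.32, limma adjusted p = 0.0334). Gm11942, a processed pseudogene on chromosome 4, went the other way, with 7.80, 7.13, 4.92 and 8.41 in the floxed and 1283, 248 and 306 in the intact tumours. It was almost absent from every floxed library, and the log2 difference was -5.86 (SE 0.61, limma adjusted p = 0.0352). Reads of a pseudogene can come from its parent gene, so its count is uncertain. With 1 library left out at a time the limma adjusted p ranged from 0.0666 to 0.262 for Dll3, from 0.0530 to 0.262 for Adcy8, from 0.0211 to 0.262 for Selenov and from 0.0336 to 0.262 for Gm11942. Only without intact replicate 1 did Selenov and Gm11942 stay past the threshold, and without any 1 of floxed replicates 1 to 4 or intact replicates 2 and 3 limma called none of the 4. The edgeR quasi-likelihood test called no gene, with 694 at an unadjusted p under 0.05. The titles of floxed replicates 1 and 4 share their first code, as do those of intact replicates 2 and 3. A further number in each title differs between all 7 libraries. With libraries that share a first code summed limma called no gene (573 unadjusted), at adjusted p-values of 0.0701 for Dll3 and 0.437 for Selenov, Adcy8 and Gm11942. With log2 Xist as a covariate it also called none (686 unadjusted), at an adjusted p of 0.227 for each of the 4. On simulated data a larger share of limma's calls than the threshold allows were false, so the 4 calls are less firm than their adjusted p-values.

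**Figure D1:**
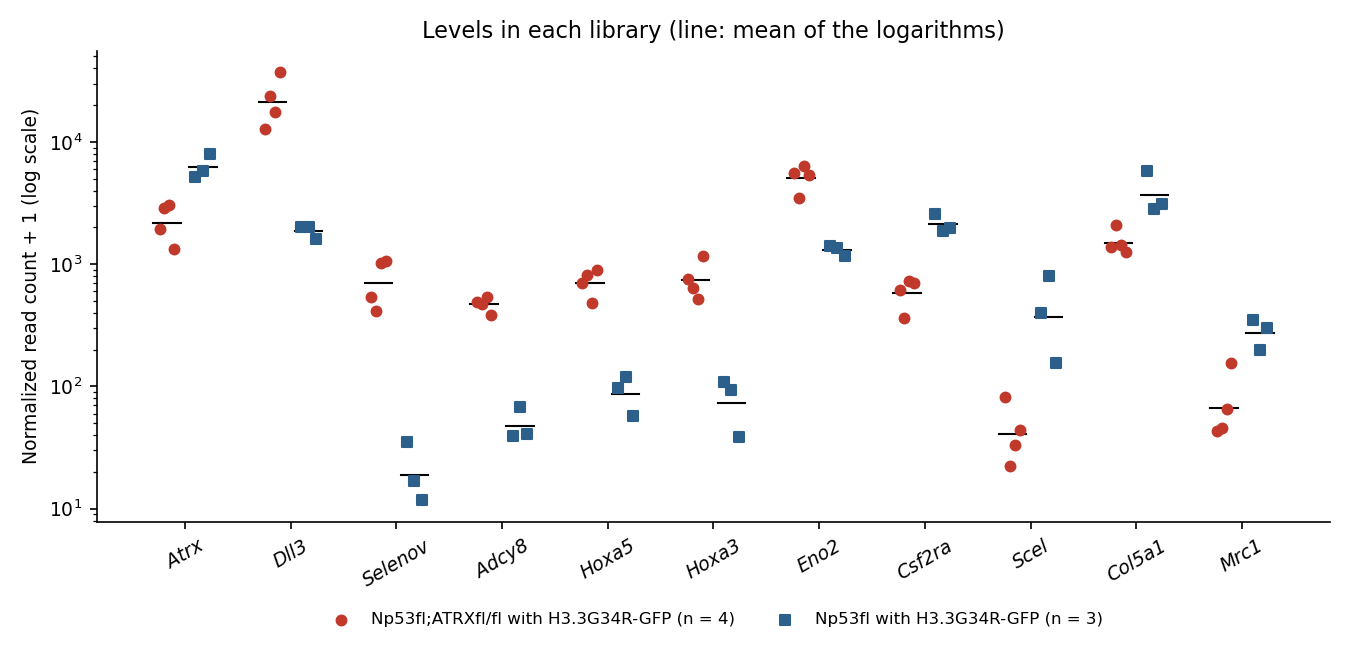
Normalized counts on a log axis of genes described in the text, 1 point for each of the 4 floxed and 3 intact libraries, with a line at the mean of the logarithms. A value of 1 was added to each count. Dll3, Selenov and Adcy8 are higher in all floxed libraries than in any intact one, and Atrx is lower in all of them.

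Dll3 and Selenov lie side by side on mouse chromosome 7, both on the minus strand (Dll3 chromosome 7, 28293553 to 28302238, minus strand, GRCm38; Selenov chromosome 7, 28284652 to 28291186, minus strand). Their starts in this annotation (GENCODE) are 11.1 kb apart. The 250 bases before the RefSeq start of each are shown because these 2 neighbours rose together. RefSeq starts Dll3 further downstream than GENCODE does, so that its window lies within the coordinates just given, while for Selenov both starts are the same. The windows are from RefSeq on GRCm38.p6, written 5′ to 3′ on the strand of the gene, in lower case with each CpG, the dinucleotide that DNA methylation acts on, in capitals. The first is chr7:28301786-28302035 and the second chr7:28291187-28291436.
Dll3: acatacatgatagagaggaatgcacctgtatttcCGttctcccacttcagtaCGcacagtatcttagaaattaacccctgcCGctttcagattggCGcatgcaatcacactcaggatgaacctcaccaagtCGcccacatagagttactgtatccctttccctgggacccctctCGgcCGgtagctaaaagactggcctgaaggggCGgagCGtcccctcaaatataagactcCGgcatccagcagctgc
Selenov: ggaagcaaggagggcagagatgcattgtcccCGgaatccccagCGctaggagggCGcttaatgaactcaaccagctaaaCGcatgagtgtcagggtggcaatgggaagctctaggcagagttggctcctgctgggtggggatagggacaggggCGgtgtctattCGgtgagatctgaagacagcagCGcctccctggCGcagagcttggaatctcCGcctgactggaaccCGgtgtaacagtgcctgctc
Each window has 10 CpG, against a median of 6 over the 32851 windows of the table, of which 37.8% hold at least as many. Of the motifs searched on both strands, the Dll3 window has the E-box CAGCTG (13.0% of all windows) and the Selenov window has TGGGAA, the core of the sequence bound by the Notch partner RBPJ (21.6% of all windows). Such matches are descriptions of letters and not of bound sites.

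The higher values were not limited to these neighbours. Within 250 kb of the start of Dll3, 32 genes are annotated and 19 were tested. Of those, 18 had a positive log2 difference, against 50.04% of all genes tested. In 6 the groups did not overlap, all higher, against 2.34% of all genes tested. Past the threshold of the authors' deposited table were 5, all higher, against 0.372% of the genes with an adjusted p there. These counts include Dll3, on which the window is centred, and Selenov. Fbl, which encodes the nucleolar RNA methylase fibrillarin, had 881, 1031, 921 and 2035 in the floxed and 335, 329.6 and 336 in the intact tumours. The intact values were nearly equal and all floxed values lay above them (log2 1.77, SE 0.31, limma adjusted p = 0.364; deposited adjusted p = 0.000677 in the authors' deposited table). Eid2, a repressor of differentiation genes, differed by 0.90 (SE 0.22) and Gm45011, an unnamed transcript, by 2.49 (SE 0.70). Nccrp1, near the edge of the window, had 198, 18.3, 201 and 90.1 against 4.12, 0 and 7.13, with a wide spread among the floxed tumours and next to nothing in the intact ones. The 13 other tested genes of the window overlapped between the groups, with differences from -0.38 for Eid2b to 1.30 for 9530053A07Rik. Zfp36, an immediate early regulator of mRNA decay, differed by 1.24 (SE 0.68), the kinase gene Dyrk1b by 0.73 (SE 0.28) and Gmfg by 0.65 (SE 0.65). Supt5, a transcription elongation factor, differed by 0.24 (SE 0.18), Rps16, a ribosomal protein gene, by 0.17 (SE 0.50) and Paf1 by 0.08 (SE 0.23). The contrast with H3.3WT shares no library with this one but compares the same genotypes. There Dll3 differed by 4.26 (SE 1.0), Selenov by 5.97 (SE 0.68, limma adjusted p = 0.0288) and Fbl by 1.97 (SE 0.46).

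**Figure D2:**
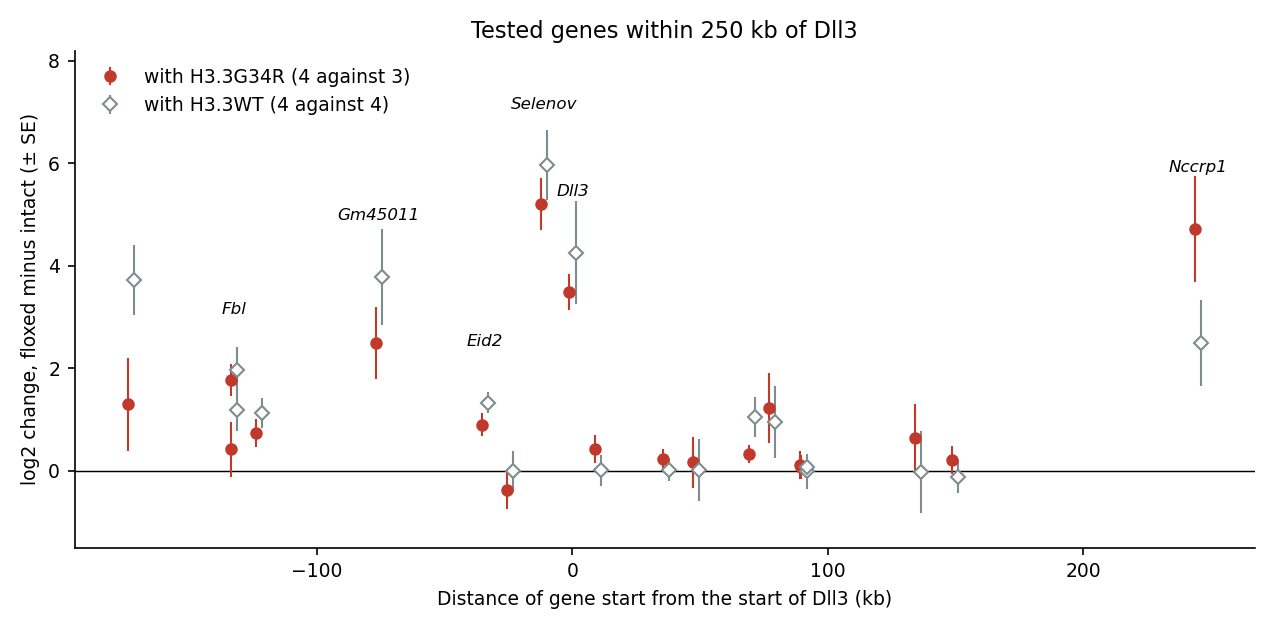
Log2 difference, floxed minus intact, of the 19 tested genes within 250 kb of the start of Dll3 against their distance from it in kb, with bars of 1 SE, for tumours with H3.3G34R and with H3.3WT. Selenov and Dll3 stand at 5.21 and 3.49 with H3.3G34R, Nccrp1 at the right edge stands at 4.73, and 18 of the 19 genes lie above 0.

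The Hox genes set the position of cells along the body and are covered by PRC2 in the forebrain. Only 9 of the 39 Hox genes passed the filter, 7 of them in the HoxA cluster, and a gene silent in one group can pass only through the other. The highest value of any of the 30 untested ones was 34.9, of Hoxa9 in floxed replicate 4. Hoxa2, Hoxa3, Hoxa4, Hoxa5 and Hoxa7 were higher in every floxed tumour than in any intact one. Hoxa5 had 694, 808, 485 and 900.3 in the floxed and 96.9, 119 and 56.2 in the intact tumours. The floxed tumours were all several times higher, with a log2 difference of 3.01 (SE 0.35). Limma did not call Hoxa5 (adjusted p = 0.0537, and 0.106 to 0.300 with 1 library left out). It is past the threshold of the authors' deposited table (adjusted p = 7.72e-12). Hoxa3 had 749.7, 642, 517 and 1174 against 108, 93.3 and 37.4, again without overlap (log2 3.33, SE 0.44, limma adjusted p = 0.0928). Hoxa7 had 462, 643, 123 and 1274 against 52.6, 18.3 and 32.1. Its floxed values spread widely, yet the lowest was above the highest intact value (log2 3.84, SE 0.76, limma adjusted p = 0.564). Hoxa2 had 157, 143, 131 and 575 against 20.6, 32.3 and 55.3 and Hoxa4 336, 249.6, 295 and 557 against 119.6, 69.8 and 47.2, both without overlap. Hoxa6 overlapped between the groups, since floxed replicate 3 had 0.983. Floxed replicate 4 was the highest library for Hoxa2, Hoxa3, Hoxa4, Hoxa5 and Hoxa7, and the only one with Hoxb2 (99.8, 0 in the other 6).

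The sequences upstream of Hoxa5 and Hoxa3 are shown because these 2 genes had the smallest p-values of the Hox family. They are the 250 bases before each RefSeq start (chr6:52204588-52204837 and chr6:52213068-52213317, minus strand, RefSeq GRCm38.p6), with CpG in capitals. The Hoxa3 window lies within Hoxa3 as GENCODE annotates it, with a start further upstream, and the Hoxa5 window directly before Hoxa5.
Hoxa5: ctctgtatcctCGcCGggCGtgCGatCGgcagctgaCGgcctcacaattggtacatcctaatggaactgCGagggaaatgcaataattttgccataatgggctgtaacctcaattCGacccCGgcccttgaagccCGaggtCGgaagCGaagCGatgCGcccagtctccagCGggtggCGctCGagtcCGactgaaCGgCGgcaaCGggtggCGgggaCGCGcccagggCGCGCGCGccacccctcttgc
Hoxa3: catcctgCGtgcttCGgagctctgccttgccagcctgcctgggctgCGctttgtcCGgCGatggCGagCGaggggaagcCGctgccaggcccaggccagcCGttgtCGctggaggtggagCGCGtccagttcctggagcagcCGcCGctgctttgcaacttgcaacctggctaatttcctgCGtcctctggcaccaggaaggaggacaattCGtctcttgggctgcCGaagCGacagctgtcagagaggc
The Hoxa5 window has 28 CpG, a number that 7.6% of all windows reach, and the Hoxa3 window has 18, which 21.7% reach. Both are denser than the windows of Dll3 and Selenov, and both also contain the E-box CAGCTG.

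The noncoding transcripts of the cluster had the same sign. Over the cluster and 10 kb on either side on chromosome 6 the annotation has 36 genes, and 14 were tested. These include the 7 tested Hoxa genes. All 14 differences were positive, against 50.04% of all genes tested. In 9 the groups did not overlap, all higher, against 2.34% of all genes tested. Past the threshold of the authors' deposited table were 8, all higher, against 0.372% of the genes with an adjusted p there. The antisense RNA Hoxaas2 differed by 3.11 (SE 0.68) and Hotairm1, a regulatory RNA of the cluster, by 0.92 (SE 0.44). The sources used here do not give the strand setting of the counting, so reads of these transcripts and of the Hox genes they overlap cannot be told apart. With H3.3WT the differences were 2.60 (SE 1.88) for Hoxa5 and 3.33 (SE 2.09) for Hoxa7, where the intact libraries themselves ranged from 0 to 1245 for Hoxa5. Leaving out p53_WT replicate 3 brought the median of the tested Hox genes with H3.3WT from 1.86 to 0.44.

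**Figure D3:**
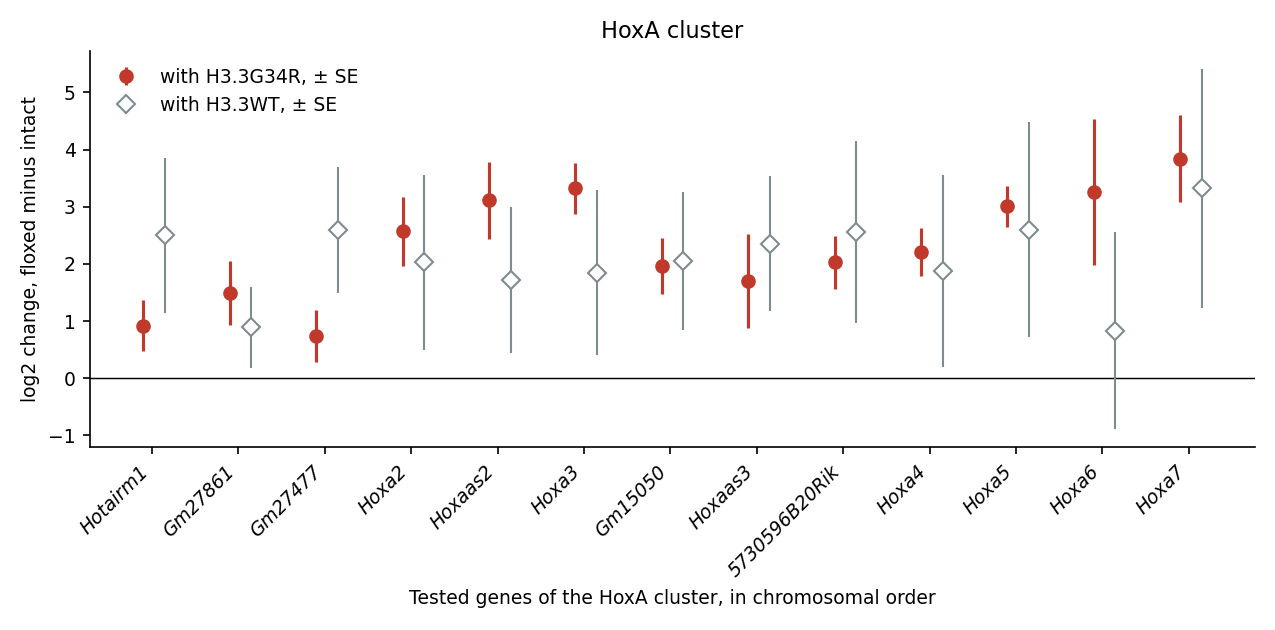
Log2 difference, floxed minus intact, of tested genes of the HoxA region in their order along chromosome 6, with bars of 1 SE, for tumours with H3.3G34R and with H3.3WT. All of them lie above 0 with H3.3G34R, with Hoxa7 highest at 3.84, and the bars with H3.3WT are wider for each of them.

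PRC2-bound regulators outside the Hox clusters gave no call. Of 157 listed regulators 89 were tested, 59 had a positive difference and the median was 0.23, against 50.04% positive and a median of 0.00 over all genes tested. Of the 89, 4 were higher without overlap and 1 was lower, against 2.34% and 2.30% of all genes tested. Nkx6-2, a homeobox gene of ventral progenitors and oligodendrocytes, had 67.3, 107, 306 and 162 in the floxed and 41.2, 28.8 and 18.7 in the intact tumours and is the only one past the threshold of the authors' deposited table (adjusted p = 0.00814). All floxed values of Nkx6-2 were above the intact ones. Bmp4, a growth factor of the dorsal midline, differed by 0.76 (SE 0.27) without overlap. Gsx2, which specifies ventral forebrain progenitors, was lower without overlap (-1.59, SE 0.74).

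Among the genes for the machinery of Polycomb and of H3.3 deposition none was called. The 35 subunits of PRC2 and PRC1 had a median log2 difference of 0.01 with 18 positive, and the catalytic subunit Ezh2 differed by 0.14 (SE 0.30), Eed by 0.01 (SE 0.23) and Suz12 by -0.03 (SE 0.21). Yaf2, a subunit of a variant PRC1, was the only one whose groups did not overlap, at 0.38 (SE 0.17). Among 26 H3.3 chaperones and partners of ATRX, 9 were positive, the median was -0.09 and none had groups that did not overlap. Daxx, the partner of ATRX, differed by 0.10 (SE 0.21). Both medians changed sign with 1 library left out, the first without floxed replicate 4 or intact replicate 1 or 2 and the second without intact replicate 3. Of 14 telomere genes, 5 were positive, with Acd, the shelterin subunit that recruits telomerase, lower without overlap (-0.40, SE 0.20). Of 29 genes of homologous recombination and the Fanconi pathway, 10 were positive and Rad52 was higher without overlap (0.34, SE 0.21).

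In the Notch pathway Dll3 was the only gene called. Among 12 ligands and receptors 7 were positive with a median of 0.10. Dlk2, a ligand-like inhibitor, was the only other one without overlap (159.9, 249, 154 and 155 against 132, 85.4 and 88.2, log2 0.81, SE 0.34, limma adjusted p = 1). Jag2, an activating ligand, differed by 0.73 (SE 0.32), Dll1 by -0.19 (SE 0.72), and the receptor Notch1 by -0.41 (SE 0.28). These values overlapped between the groups. Of 22 genes that process or modify Notch, 13 were positive with a median of 0.08, and none was called. Of 14 nuclear partners and targets, 5 were positive with a median of -0.10, and no gene had groups that did not overlap. Hes1, a direct target of Notch in progenitors, had 1703, 1712, 1234 and 1189 in the floxed and 1041, 1805 and 932 in the intact tumours, and Hes5 had 342, 163, 497 and 153 against 55.7, 252 and 336. Both ranges overlapped, at log2 differences of 0.25 (SE 0.28) and 0.60 (SE 0.69). With H3.3WT the medians of the same 3 lists were 0.71, 0.32 and 0.43, and the last had 14 of 14 genes positive, and 9 of 14 without p53_WT replicate 3. With H3.3G34R these 3 medians changed sign with 1 library left out: the first without floxed or intact replicate 2, the second without intact replicate 1 and the third without floxed replicate 4 or intact replicate 3.

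Neuronal genes leaned upward in number, with no call. Of 52 neuronal fate and differentiation genes 45 were tested, 32 were positive and the median was 0.26. Only Ebf3, a transcription factor of neuronal differentiation, had groups that did not overlap (21.4, 21.4, 107 and 20.4 against 19.6, 13.95 and 17.8). St18, a zinc finger factor, differed by 3.11 (SE 1.11), Chga, a protein of secretory granules, by 1.16 (SE 0.44) and Rbfox3, the neuronal nuclear antigen NeuN, by 1.99 (SE 0.87). Of earlier factors, Neurog2 differed by -1.06 (SE 1.70) and Sox4 by -0.48 (SE 0.28). Among 44 genes of the mature synapse 36 were positive with a median of 0.47, and Vamp1 and Cacng2 did not overlap. Cacng2, which anchors AMPA receptors, had 21.4, 6.11, 229 and 45.7 against 1.03, 0 and 2.67, so that floxed replicate 3 carried most of its mean (deposited adjusted p = 0.0017 in the authors' deposited table). Slc32a1, the vesicular GABA transporter, had 40.9, 2.04, 394 and 118 against 2.06, 0.872 and 5.35, with the same library far above the rest.

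Floxed replicate 3, the library with the most myelin RNA, was also the highest for these lists. The mean log2 level of the synapse list was 10.73 in floxed replicate 3, against 8.52 to 9.36 in the other floxed tumours and 7.70 to 8.91 in the intact ones. Over all the alternative analyses the median of the synapse list ranged from 0.09 to 0.80 and that of the neuronal fate list from 0.11 to 0.51. With H3.3WT the medians had the other sign, -0.74 for neuronal fate and -1.21 for the synapse, and -0.23 and -0.55 without p53_WT replicate 3, whose Snap25 was at 37856. How far tissue content accounts for these medians was not tested.

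Glial lists had medians of both signs. All 20 genes of mature oligodendrocytes were positive, with a median of 0.70. Mal, a myelin proteolipid, had 205, 343, 2503 and 338 against 48.5, 56.7 and 109.6 and Hapln2, which organises the nodes of Ranvier, 15.6, 20.4, 482 and 162 against 13.4, 13.1 and 11.6, both without overlap and both past the threshold of the authors' deposited table. Mbp, the myelin basic protein gene, overlapped, with 2241, 3213, 42173 and 16605 against 7217, 1866 and 8499.6. The list rests on floxed replicates 3 and 4: their mean log2 levels were 10.89 and 9.26, replicates 1 and 2 (7.57 and 7.71) lay within the intact range, and without both the median was -0.04. Of 20 astrocyte genes 16 were positive (median 0.59), and Mlc1, a membrane protein of astrocyte endfeet, was higher without overlap (1.53, SE 0.62). This list too was highest in floxed replicates 3 and 4, at mean log2 levels of 12.18 and 11.40. Replicates 1 and 2 were at 10.79 and 10.44 and the intact tumours at 10.59 to 10.67, and without replicates 3 and 4 the median was 0.05. Oligodendrocyte progenitor genes, the identity shared by these tumours, leaned slightly the other way, with 4 of 20 positive and a median of -0.13 that changed sign without floxed replicate 4 or intact replicate 3. Olig2 differed by -0.30 (SE 0.44) and Pdgfra by -0.03 (SE 0.37).

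**Figure D4:**
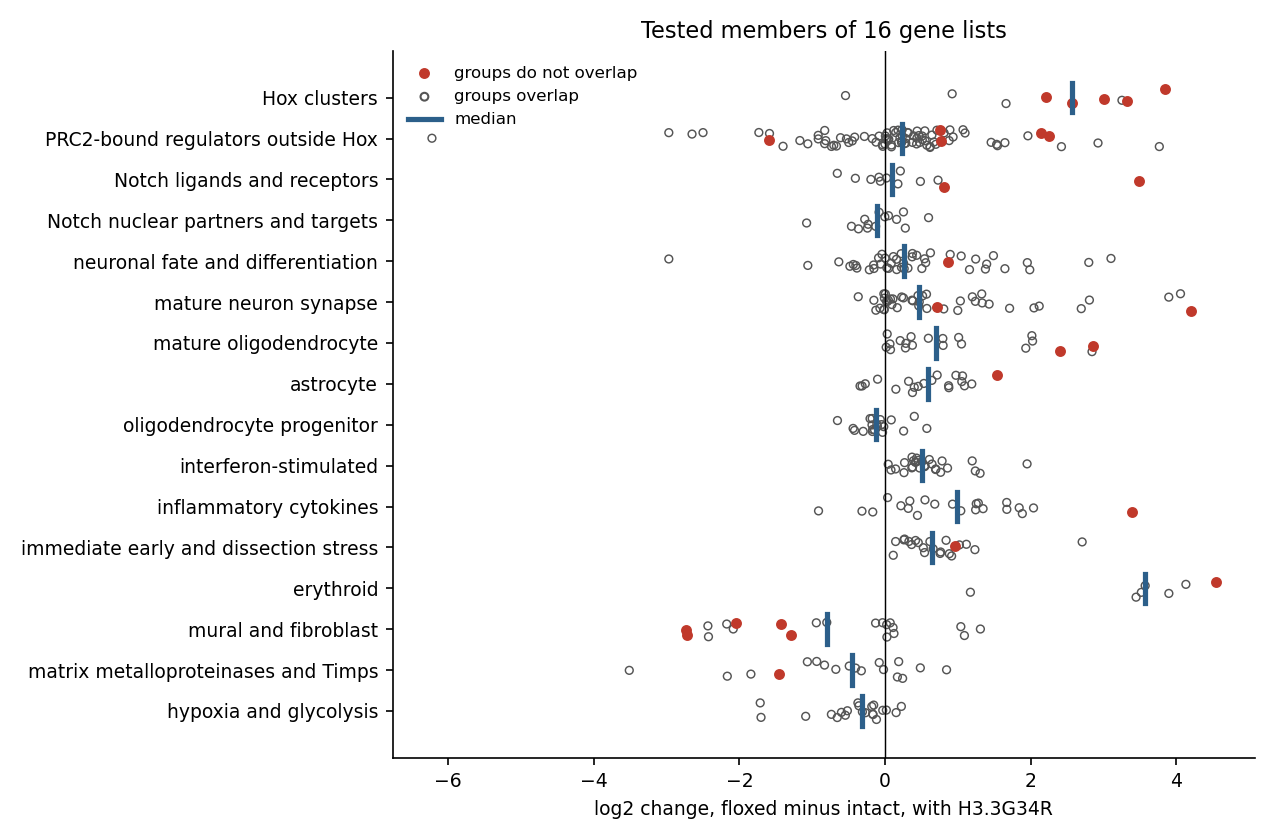
Log2 difference, floxed minus intact, of each tested gene of selected lists (points, filled where the groups do not overlap), with a thick line at the median of the list. The median is highest for the erythroid list at 3.58 and lowest for the mural and fibroblast list at −0.80.

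Several single genes outside these themes were higher in every floxed tumour. Eno2, the neuronal form of the glycolytic enzyme enolase, had 5553, 3502, 6318 and 5343 against 1409, 1345 and 1169. All floxed values were well above the highest intact one, at a log2 difference of 1.96 (SE 0.23). The limma adjusted p of Eno2 was 0.0537, and 0.119 to 0.372 with 1 library left out (1.74e-08 in the authors' deposited table). Acot5, a peroxisomal thioesterase, had 21.4, 31.6, 46.2 and 30.05 and was at 0 in all intact tumours, so that it was at least 11.6-fold higher, taking 3 reads per library as the floor. Acot5 has close paralogues, so its count is uncertain. Otos, first known from the inner ear, had 449, 220.0, 254 and 192 against 29.9, 49.7 and 41.9 and Kctd8, a subunit of GABA-B receptors, 155, 322, 442 and 216 against 13.4, 24.4 and 41.00. Neither pair of groups overlapped, at limma adjusted p-values of 0.164 and 0.164. Cryl1, a crystallin-like dehydrogenase, differed by 1.46 (SE 0.23), Me3, the mitochondrial malic enzyme, by 1.74 (SE 0.30) and Faim2, a neuronal inhibitor of Fas-induced death, by 1.58 (SE 0.28). Pdgfd, a ligand of the PDGF receptor beta, differed by 1.85 (SE 0.45). All of these are past the threshold of the authors' deposited table. Among the relatives of Adcy8, of 24 adenylyl cyclase and cAMP genes tested, 19 were positive with a median of 0.15, and no other member had groups that did not overlap. Without intact replicate 1 that median was -0.08.

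The genes lower in every floxed tumour included receptors of myeloid cells and matrix genes. Csf2ra, the alpha chain of the GM-CSF receptor, had 614, 359.6, 721 and 704 in the floxed and 2579.6, 1867 and 1974 in the intact tumours. Every floxed value was well under the lowest intact one, at -1.87 on the log2 scale (SE 0.28, limma adjusted p = 0.164; 5.55e-05 in the authors' deposited table). Mrc1, the mannose receptor of perivascular macrophages, differed by -2.05 (SE 0.51) without overlap. Msr1, the macrophage scavenger receptor, named here after its values were seen, had 246, 184, 149 and 208 against 1249.6, 438 and 357, also without overlap (0.0417 in the authors' deposited table). With H3.3WT Csf2ra differed by -1.79 (SE 0.41) and Msr1 by 0.41. Of 25 microglia and macrophage genes, a list that holds Mrc1 but not Msr1 or Csf2ra, 15 were positive and 10 negative, and Mrc1 was the only one without overlap. The median was 0.12, which turned negative without floxed replicate 4 or intact replicate 2. Arg1, the arginase of activated macrophages, differed by -2.69 (SE 1.28) and Spp1, osteopontin, by -1.78 (SE 0.76), both with overlap, and the microglial receptor P2ry12 by 0.44 (SE 0.66). Itgav, an integrin that binds matrix, differed by -1.20 (SE 0.27) and Mmp2, the gelatinase, by -1.45 (SE 0.34), both without overlap. Scel, an epithelial envelope protein, had 80.9, 21.4, 32.4 and 43.3 against 400.0, 800.4 and 154, Vit, a matrix protein, 174, 38.7, 127 and 9.62 against 378, 1189 and 2097 and Tfap2a, a neural crest factor, 7.80, 2.04, 7.87 and 9.62 against 103, 14.8 and 267. In these 3 genes no floxed value reached the lowest intact one, and the intact values varied widely. Creb3l3, a liver transcription factor, differed by -2.84 (SE 0.60), Nxpe5 by -3.20 (SE 0.78), Ccdc150 by -1.91 (SE 0.47) and the long noncoding RNA AI427809 by -2.17 (SE 0.48). None of these passed the limma threshold.

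Among genes of vessel walls and fibroblasts limma called none. Of 21 mural and fibroblast genes 13 were negative and the median was -0.80. Lower without overlap were 5 of them, against 2.30% of all genes tested. All 5 are collagens: Col1a1, Col5a1, Col5a2, Col6a1 and Col12a1. The other collagens of the list, Col1a2 and Col3a1, overlapped between the groups, at -2.43 (SE 0.77) and -2.17 (SE 0.70). Col5a1, which nucleates collagen fibrils, had 1373, 2072, 1428 and 1254 against 5732, 2812 and 3112 (log2 -1.30, SE 0.29; 0.0439 in the authors' deposited table). Col1a1, the main fibrillar collagen, had 1331, 1231, 585 and 3355 against 3400.3, 5263 and 9376. Col6a1 had 524, 479, 789 and 1408 against 28848, 1617 and 2371, so that intact replicate 1 was far above every other library. Genes of pericytes and smooth muscle in the same list did not go with them: Pdgfrb differed by 0.03 (SE 0.42) and Rgs5 by 1.04 (SE 0.91). Of 18 matrix metalloproteinases and their inhibitors 5 were positive with a median of -0.45. Mmp3, stromelysin, had 84.8, 3.06, 17.7 and 30.05 against 918, 195 and 77.6, and floxed replicate 1 overlapped the intact range. Mmp14, the membrane-bound activator of Mmp2, differed by 0.19 (SE 0.18). Intact replicate 1, the library with the most hypoxia RNA, was also the highest for both lists (mean log2 levels of 10.79 and 10.54), and over the alternative analyses the medians ranged from -1.04 to -0.34 and from -0.73 to -0.05. The part of that library in the difference was not tested further. With H3.3WT the medians of the fibroblast and protease lists were 0.62 and 0.26.

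Lists that reflect blood, immunity and tissue state spread widely between tumours of the same group. All 7 tested erythroid genes were positive with a median of 3.58, but the floxed levels of Hbb-bs, a beta globin, were 11286, 203122, 27693 and 105004 and the intact ones 22438, 10640.2 and 324, and floxed replicate 1 was within the intact range. Globin genes, and class I genes below, are near-identical copies, so reads may be split between them. Only Alas2, which makes haem in red cells, did not overlap (293, 9433, 1881 and 4946 against 131, 207 and 32.1; 1.10e-05 in the authors' deposited table). All 29 interferon-stimulated genes were positive (median 0.51), as were all 14 genes of class I antigen presentation (median 0.93), and no member of either list was without overlap. In both lists intact replicate 2 was the lowest library and intact replicate 1 among the highest, and leaving out intact replicate 2 turned the medians to -0.28 and -0.10. Of 22 cytokine genes 19 were positive (median 0.99). Intact replicate 1 stood apart in this list, at a mean log2 level of 8.51 against 5.84 and 5.85 in the other intact tumours and 6.84 to 8.94 in the floxed ones. Without it the median was 1.95, and over all alternatives the lowest was 0.34, with libraries that share a title code summed. Il6, the inflammatory cytokine interleukin 6, had 220.3, 361, 19.7 and 289.7 against 15.5, 14.8 and 9.81, without overlap and past the threshold of the authors' deposited table. All 22 immediate early genes, which respond to handling of tissue as well as to signalling, were positive (median 0.64), with Egr1 higher without overlap (0.96, SE 0.45). Hypoxia and glycolysis genes had 3 of 21 positive and a median of -0.31, with the highest level in intact replicate 1, without which the median was 0.33. Proliferation genes had 22 of 32 positive and a median of 0.27, and Mki67, the proliferation marker, differed by 0.54 (SE 0.44). That median turned negative without floxed replicate 4 or intact replicate 1.

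The 113 genes of the authors' deposited table were then followed in the H3.3WT tumours, which are other libraries. Of the 78 higher genes 76 were tested there, 49 had the same sign, and 9 (11.8%) were higher without overlap, where 1.39% of all 17893 genes tested with H3.3WT were. Of the 35 lower genes 31 were tested, 20 had the same sign and 6 (19.4%) were lower without overlap, where 1.26% of all genes were. Past the threshold of the authors' deposited tables in both contrasts and in the same direction were 15 genes. Of these 7 were higher, which is 8.97% of the 78 and 20.6% of the 34 higher with H3.3WT, and 8 were lower, which is 22.9% of the 35 and 20% of the 40 lower with H3.3WT. The 15 are Atrx, the Dll3 neighbourhood (Dll3, Selenov, Fbl and Gm45011), Dpyd, which degrades pyrimidines, Vit, Wdr93 and 7 predicted genes or pseudogenes (Gm11942, Gm12070, Gm35850, Gm4691, Gm4815, Gm5141 and Tdpx-ps1). In all, 5 of the 15 are annotated as pseudogenes. Hoxa5 and Hoxa3 are not among the 15, and their values spread widely between the H3.3WT libraries. Since both contrasts compare the same genotypes, floxed Atrx and any other difference between these mice cannot be told apart for the 15 genes.

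**Figure D5:**
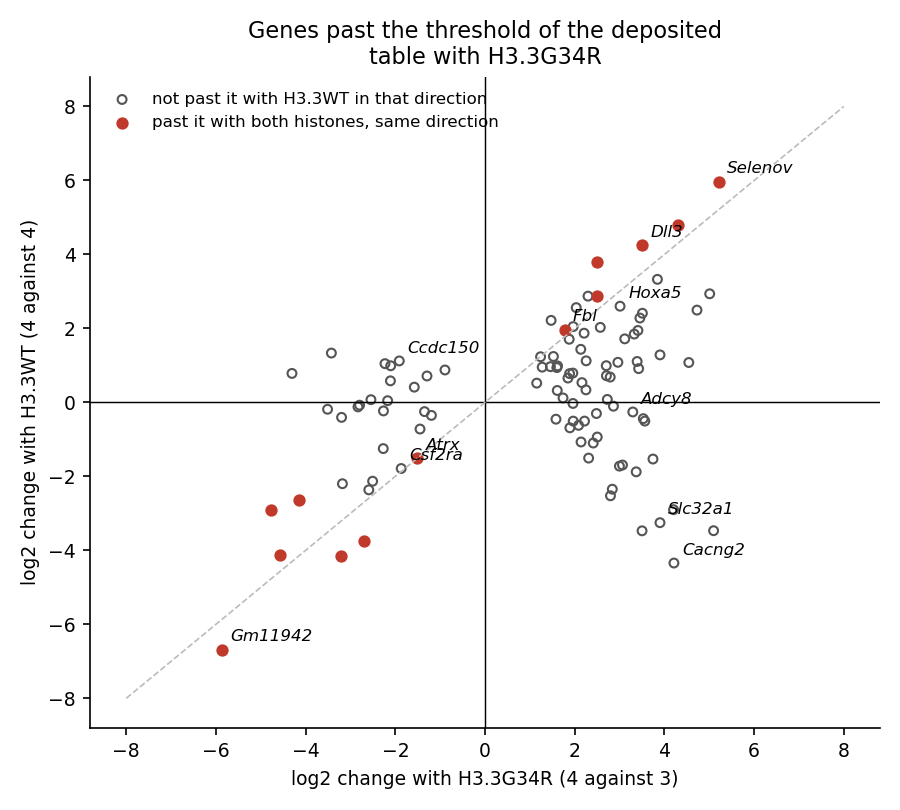
Log2 difference, floxed minus intact, with H3.3G34R on the x axis against that with H3.3WT on the y axis, for the genes past the threshold of the authors' deposited table for H3.3G34R that were tested in both. Filled points are past it in both tables in the same direction, and the dashed line marks equal differences. Selenov, Dll3 and Gm11942 lie near that line, at 5.21, 3.49 and −5.86 on the x axis, and Adcy8 lies near 0 on the y axis.

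The difference between the 2 contrasts was tested directly as an interaction over all 15 libraries. Limma called no gene (365 at an unadjusted p under 0.05), nor did edgeR's quasi-likelihood test (830 unadjusted), and DESeq2 called 15, 11 of them with a positive interaction, which means a signed log2 difference that is higher with H3.3G34R than with H3.3WT. Adcy8 was among those 15. With H3.3WT it differed by -0.26 (SE 0.70), and its interaction was 3.55 (SE 0.83, limma adjusted p = 1). Its normalized counts with H3.3WT ranged from 123 to 182 in floxed and from 56.8 to 512 in intact libraries. Mobp was also among the 15. It was at 17379.7 in p53_WT replicate 3, against 131.9, 261.6 and 664.8 in p53_WT replicates 1, 2 and 4. Dll3 and Selenov had interactions of -0.77 (SE 1.22) and -0.76 (SE 0.91), smaller than their errors or close to them. For Hoxa5 the interaction was 0.40 (SE 2.22) and for Col5a1 -2.01 (SE 0.54). None passed the limma threshold, which does not show that the 2 contrasts are alike.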

How the data were processed

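The labels' protocols name the Qiagen RNeasy kit for the extraction of RNA and TruSeq mRNA for the libraries. STAR 2.7, HTSeq, DESeq2 and the build mm10 are listed per the submitters' processing notes. No annotation, strand setting or other option is given in the sources used here. Per the file headers, the authors deposited a signal for each gene and library, which is the read count divided by 1 size factor per library, and a log2 fold change, p-value and adjusted p-value from DESeq2. All values above 0 (100%) were whole multiples of the value of 1 read within 0.01, so reads were recovered by division. Over the 9 pairs of libraries within a group, chi-square divided by its degrees of freedom was at least 89.8. So within a group no library was a repeat of another, which does not show that they come from different mice. Pairs across the groups were not compared in this way.

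In R 4.3.3, limma 3.58.1 (trend and robust) was fitted to log2(value + 1) of the 7 libraries where a gene's mean reached 10, and p-values were adjusted over all 17459 by Benjamini-Hochberg, with a threshold of 0.05. The pseudocount understates changes of low genes. The interaction used all 15 libraries, scaled together by the median of ratios. Ensembl IDs were matched to GENCODE vM21 on GRCm38 (99.9%), which may not be the authors' annotation. Upstream sequences are from RefSeq GRCm38.p6, where 9 of 12 genes looked up had a match. Alternatives were edgeR 4.0.16 and DESeq2 1.42.0 on the recovered reads, limma-voom with quality weights, TMM scaling, pseudocounts of 0.5 and 5, a mean of at least 50 and no filter, all 4 groups in 1 fit, log2 Xist as a covariate, libraries that share a title code summed, and libraries left out. Files were read with the R package data.table (version 1.17.8), and the fits were tested on simulated data, where limma made more false calls in the comparison of 7 libraries than its threshold allows.

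Genes named are Atrx, Trp53, H3f3a, H3f3b, Pdgfa and Xist, every gene called, up to 12 in each direction with the smallest limma p whose groups do not overlap, up to 8 in each direction with the smallest adjusted p in the table of the authors (predicted genes and pseudogenes left out of both), up to 4 members of each of 38 lists, and the tested neighbours of Dll3 and Atrx. Other members of a list are named for their role in it or because their groups do not overlap, and were chosen after their values were seen. The comparison, the lists and this rule were chosen with earlier results of these data known. No list was tested. Replicate numbers follow the order of accession. Results on a few withheld items are not reported here.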

Additional observations from a re-analysis of the deposited data

Results flagged for a closer look

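In 197 named genes the 4 floxed libraries were searched for 1 library far from the other 3 by Dixon's ratio at its 95% critical value. This picked out 14 genes, and chance alone picks out about 1 in 20 groups. Of these, 7 were in floxed replicate 4. Nkx2-2, a progenitor factor, was at 15603 there against 2211 to 2575 in the other 3, Bcan, a brain proteoglycan, at 12469 against 29149 to 32253, and Chga, of secretory granules, at 383 against 1041 to 1083. In the same library Chek1, a checkpoint kinase, was at 468 against 285 to 300.3, Rad52 at 859 against 629 to 650.2, and the neighbours of Atrx Magee1 and Pbdc1 at 1552 against 2595 to 2777 and 1377 against 843 to 897.

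Floxed replicate 2 was apart in 4 genes: Egr1, an immediate early factor, was at 31901 against 9848 to 11044, Ifit3, an interferon-stimulated gene, at 223 against 2079 to 2852, Dlk2 at 249 against 154 to 160 and Tfap2a at 2.04 against 7.80 to 9.62. Floxed replicate 3 was apart in Mmp2 at 156 against 316 to 326 and in the Y-linked Eif2s3y at 0.983 against 251 to 522, and it was also the floxed library with Xist. In floxed replicate 1 Pdgfd was at 84.8 against 66.2 to 68.5. Tfap2a, Mmp2, Dlk2, Rad52, Egr1 and Pdgfd had groups that did not overlap with these libraries included.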

How the results depend on the processing

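The number of genes called depended on the test. DESeq2 on the recovered reads called 113, the same genes as the deposited table, and edgeR called 0. Limma called 0 with log2 Xist as a covariate and 0 with libraries that share a title code summed, 12 with no filter on low values, and 1 without both floxed replicates 3 and 4. With 1 library left out it called 0 to 5, and 5 only without intact replicate 1. TMM scaling gave 4, pseudocounts of 0.5 and 5 gave 4 and 5, and a mean of at least 50, voom weights or all 4 groups in 1 fit gave 3 each. The interaction had 15 calls with DESeq2 and 0 in every other setting tried. The Atrx difference ranged from −1.67 to −1.28 over its alternatives. Of 38 list medians, 32 moved by less than the spread between libraries under every setting. Most of the 38 nevertheless changed sign in at least 1 setting, that of the receptor tyrosine kinases in 8 of 18. Others, among them that of the Hox clusters, kept their sign in all 18. Of 197 named genes, 90 both moved by less than that spread and kept their side of the threshold under every setting. No paired analysis was possible because the labels give no replicate numbers. With 3 and 4 libraries a group, changes smaller than the spread between tumours were not detectable.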

Other observations

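Outside the themes described above, 3 of 26 tested imprinted genes, which are expressed from 1 parental copy, were higher in every floxed tumour than in any intact one. Over all genes tested, 2.34% were. Peg10, a paternally expressed gene of retroviral origin, had 2024, 3633, 4133 and 1948 in the floxed and 787, 984 and 1711 in the intact tumours. Floxed replicates 1 and 4 lay just above the highest intact tumour and replicates 2 and 3 well above it, and limma did not call the difference (log2 1.34, SE 0.37, adjusted p = 1). Its neighbour Sgce, a sarcoglycan gene, differed by 0.27 (SE 0.18) and Trappc9 by 0.34 (SE 0.18). The list as a whole had 15 positive differences and a median of 0.13. Magel2, a ubiquitin ligase regulator of the Prader-Willi region, had 32.2, 0, 307 and 4.81 in the floxed tumours and was listed at 0 in all intact ones, but also at 0 in floxed replicate 2, and replicate 3 supplied most of its reads.

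Of 22 p53 targets and damage response genes, in tumours where both groups have floxed Trp53, 10 were positive and the median was -0.09. Bbc3, which encodes the death-promoting protein PUMA, had 556, 475, 418 and 534 in the floxed and 602, 794 and 628 in the intact tumours. All floxed values were under the intact ones, as were those of the repair gene Xpc, at log2 differences of -0.44 (SE 0.22) and -0.28 (SE 0.19). Among 28 receptor tyrosine kinases and ligands 12 were positive with a median of -0.04, and Ret, the GDNF receptor, differed by -1.97 (SE 0.89). Endothelial genes had 16 of 17 positive with a median of 0.23, genes of T, NK and B cells 17 of 20 with 0.72, class II antigen presentation 8 of 9 with 0.27 and neutrophil genes 1 of 7 with -0.70. No gene of these 4 lists had groups that did not overlap. Neural stem and progenitor genes had 11 of 18 positive with a median of 0.13, and again none without overlap. Genes of cortical projection neurons had 7 of 11 positive and a median of 0.34, those of the ventral forebrain and interneurons 11 of 17 and 0.13, and those of choroid plexus and ependyma 6 of 7 and 0.78. Without intact replicate 1 the medians of the neutrophil and projection neuron lists changed sign, without intact replicate 2 that of class II presentation, without floxed replicate 3 that of the p53 targets, and without floxed replicate 4 or intact replicate 1 or 3 that of the receptor tyrosine kinases.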
